A study of Saccharomyces cerevisiae with 15 samples.

Results

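The comparison set cells that overexpressed the presequence of Mge1 against cells that overexpressed the presequence of Mss116, both with an intact PDR3 gene, over all genes. It used 6 of the 15 libraries of the study, 3 per group, each described as a biological replicate. Of the 7127 genes counted, 6184 passed the filter on low counts, and the 6182 genes other than MGE1 and MSS116, parts of which are in the constructs, are described here. In the first group, MATa W303 budding yeast overexpressed residues 1 to 44 of Mge1 fused to the red fluorescent protein mCherry (MTS-Mge1-mCherry, in short MTS-Mge1). In the second group, MATa W303 cells overexpressed residues 1 to 53 of Mss116 fused to mCherry (MTS-Mss116-mCherry, in short MTS-Mss116). The genotype in the labels names an empty 2-micron plasmid and does not name the plasmid of the construct. Both constructs stood under a galactose-inducible promoter and were induced with 1% galactose for 4 h. The labels name a rich medium with 2% raffinose for growth, whereas the study's methods describe synthetic medium with raffinose for such inductions. The strain of the MTS-Mss116-mCherry group lists can1-100, GAL and psi+ in its genotype, which the strain of the MTS-Mge1-mCherry group does not. Each presequence was represented by 1 strain, and the comparison holds no cells without a presequence construct.

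A presequence is the N-terminal targeting peptide that guides a precursor protein through the translocases of the mitochondrial membranes and is then cleaved off. Mge1 is the nucleotide exchange factor of the mitochondrial Hsp70 that drives import into the matrix, and Mss116 is a helicase that helps mitochondrial introns to splice. The mitochondrial compromised protein import response (mitoCPR) is a transcriptional programme under Pdr3, a zinc cluster activator of the pleiotropic drug resistance network, which binds pleiotropic drug response elements (PDREs) before genes for efflux pumps, lipid enzymes and the extraction factor Cis1. The question of the comparison was whether the presequence of Mge1 acts on gene expression in a way that another presequence does not. Genes under 2-fold, decreases and other pathways are described here beyond the study's own list of 35 upregulated genes.

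The presequences are shown because they are the part that was made to differ between the constructs. They are printed as the coding strand of the reference gene, with the codons for lysine and arginine, the positively charged residues that mark presequences, in capitals. Residues 1 to 44 of Mge1 are encoded at XV:774573-774704 on the plus strand and residues 1 to 53 of Mss116 at IV:847788-847946 on the minus strand (RefSeq, build R64). Lysine and arginine take 9 of the 44 codons of Mge1 (20.5%) and 9 of the 53 codons of Mss116 (17.0%), and aspartate and glutamate take 0 codons in Mge1 and 2 in Mss116.
MGE1 codons 1 to 44: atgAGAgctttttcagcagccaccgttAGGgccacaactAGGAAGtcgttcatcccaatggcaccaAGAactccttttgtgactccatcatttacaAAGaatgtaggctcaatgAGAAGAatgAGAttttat
MSS116 codons 1 to 53: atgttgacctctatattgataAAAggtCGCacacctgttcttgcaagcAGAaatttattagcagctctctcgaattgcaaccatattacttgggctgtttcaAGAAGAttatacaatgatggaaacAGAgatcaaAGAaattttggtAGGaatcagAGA

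Total counts were 9128344 to 15326370 in the MTS-Mge1-mCherry libraries and 12574668 to 14503782 in the MTS-Mss116-mCherry libraries. MGE1 was counted 66969 to 120925 times in the MTS-Mge1-mCherry libraries, against 3151 to 4164 times in the MTS-Mss116-mCherry libraries. MSS116 was counted 4600 to 8808 times with MTS-Mge1-mCherry and 79958 to 106967 times with MTS-Mss116-mCherry, so both constructs were where the labels place them. STE2, the receptor that marks MATa cells, had 4581 to 6626 counts with MTS-Mge1-mCherry and 6227 to 7173 counts with MTS-Mss116-mCherry. Levels are given as CPM, which are counts scaled to the library size after TMM normalization (the trimmed mean of M-values). URA3, a gene of uracil synthesis that serves as a selection marker in yeast, averaged 14500 ± 1444 CPM with MTS-Mge1-mCherry and 18290 ± 2508 CPM with MTS-Mss116-mCherry (SD, n = 3 each, all 15 libraries scaled together). Messages of the mitochondrial genome, which lack the poly(A) tails that mRNA libraries select, were near 0: COX1 had 1 to 5 counts in the MTS-Mge1-mCherry libraries and 0 to 1 in the MTS-Mss116-mCherry libraries. The counts therefore report on nuclear genes. MTS-Mge1-mCherry replicate 3 and MTS-Mss116-mCherry replicate 2 stood apart from the other libraries of their groups. The general stress genes (34 genes, a list of targets of the Msn2 and Msn4 activators) summed to 5720, 5605 and 3108 CPM under MTS-Mge1-mCherry, against 3648, 6577 and 2291 CPM under MTS-Mss116-mCherry, and genes of ribosome biogenesis (104) to 21085, 19261 and 29253 CPM with MTS-Mge1 against 27380, 16138 and 30373 CPM with MTS-Mss116. In part this followed the replicate number across the study. With all 15 libraries scaled together, general stress genes were lowest in replicate 3 in every group. In replicates 1, 2 and 3 of MTS-Mge1-mCherry in pdr3Δ cells, for example, they summed to 4191, 5427 and 2204 CPM. Ribosome biogenesis was lowest in replicate 2 and highest in replicate 3 in every group. The labels of the MTS-Mss116-mCherry libraries also name a table of additional samples, which those of the other groups do not. An effect of that difference and an effect of the construct cannot be told apart.

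With edgeR's quasi-likelihood test at an adjusted p of 0.05 or less, 37 genes were higher (0.599% of the genes tested) and 1 gene was lower (0.0162%) under MTS-Mge1-mCherry. Of these, 29 were at least 2-fold higher (0.469%) and 1 at least 2-fold lower (0.0162%). The count of genes higher was 20 without MTS-Mge1-mCherry replicate 1, 22 without its replicate 2 and 21 without MTS-Mss116-mCherry replicate 1. With the replicate number as a block, 47 genes were higher (0.76%) and 4 lower (0.0647%). PHO80 and YOL150C did not pass with the block (edgeR adjusted p = 0.0596 for each), and YDR133C and PHO3, which missed the threshold without it, did (0.00474 and 0.00373). The median log2 fold change of all genes tested was -0.0025. The study chose its list of 35 genes on these libraries with DESeq2, so the list is not independent evidence of a direction. With DESeq2 all 35 passed here too, at an adjusted p of 0.05 or less. With the edgeR test 28 of the 35 passed, all 28 at least 2-fold, so the lower count goes with a different test. The median log2 fold change of the 35 was 1.79. The other 9 genes that rose are outside that list. Of these, 8 rose by less than 2-fold, and the last, YOL150C, has an identifier that RefSeq does not hold. The study left dubious reading frames and MGE1 out of its list. YOL150C rests on 10, 24 and 23 counts with MTS-Mge1-mCherry against 0, 0 and 1 count with MTS-Mss116-mCherry, and did not pass without any 1 of the 6 libraries (smallest adjusted p 0.0707).

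**Figure D1:**
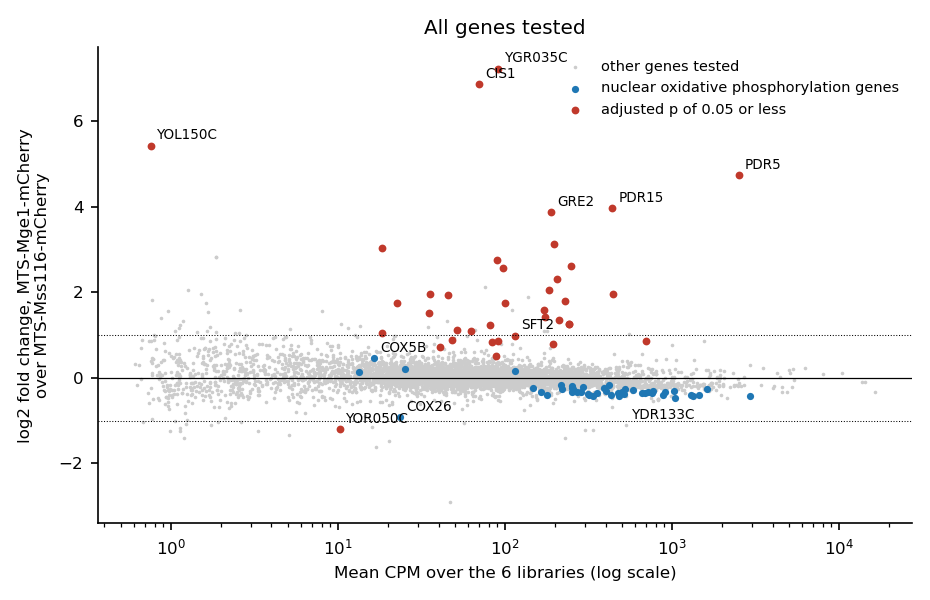
The log2 fold change (MTS-Mge1-mCherry over MTS-Mss116-mCherry, vertical axis) of every gene tested is plotted against its mean level in CPM over the 6 libraries (horizontal axis, log scale). Red points passed the test at an adjusted p of 0.05 or less (37 higher, 1 lower), blue points are the 45 nuclear genes of oxidative phosphorylation, and dotted lines mark a 2-fold change. Most blue points sit just below 0, at log2 fold changes with a median of -0.33.

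The genes that rose by less than 2-fold are given by their values in each library. SFT2, which encodes a membrane protein of Golgi transport, stood at 158, 151 and 150 CPM under MTS-Mge1-mCherry and at 76.1, 78.7 and 76.6 CPM under MTS-Mss116-mCherry (log2 fold change 0.99, SE 0.072, edgeR adjusted p = 0.00124). Its next gene, RTG3, encodes a subunit of the activator that carries the retrograde signal from damaged mitochondria to the nucleus, and had 103, 113 and 107 CPM with MTS-Mge1 against 53.1, 67.7 and 61.4 CPM with MTS-Mss116 (0.82, SE 0.11, edgeR adjusted p = 0.0234). The groups did not overlap for either gene, and the lowest MTS-Mge1-mCherry library of each lay above the highest MTS-Mss116-mCherry library. The same held for all 9 genes called higher outside the study's list, against 7.2% of all genes tested. These genes were called on the same libraries, so the lack of overlap is not separate support.

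FAA4, a long-chain acyl-CoA synthetase that activates fatty acids, was the most abundant of them, with 859, 894 and 959 CPM under MTS-Mge1-mCherry against 486, 488 and 527 CPM under MTS-Mss116-mCherry (log2 fold change 0.85, SE 0.097, edgeR adjusted p = 0.0112). IPT1, the enzyme that makes the last complex sphingolipid of yeast, had 237, 235 and 268 CPM with MTS-Mge1 against 150, 135 and 141 CPM with MTS-Mss116 (0.80, SE 0.095, edgeR adjusted p = 0.0146). CAX4, a dolichyl pyrophosphate phosphatase of N-glycosylation, had 61.7, 60.1 and 66.1 CPM with MTS-Mge1 against 35.1, 33.2 and 34.1 CPM with MTS-Mss116 (0.88, SE 0.086, edgeR adjusted p = 0.0059). The groups did not overlap for any of these 3 enzymes, which were likewise called on these libraries.

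SFK1, a plasma membrane protein that acts with the phosphatidylinositol 4-kinase Stt4, had 103, 118 and 133 CPM under MTS-Mge1-mCherry and 69.8, 63.5 and 61.6 CPM under MTS-Mss116-mCherry (log2 fold change 0.86, SE 0.11, edgeR adjusted p = 0.0269). PHO80, the cyclin that restrains the phosphate response, had 45.6, 52.2 and 54.7 CPM with MTS-Mge1 against 32.8, 31.3 and 29.4 CPM with MTS-Mss116 (0.71, SE 0.11, edgeR adjusted p = 0.0475). YGR017W had the smallest change among the called genes, with 104, 104 and 101 CPM with MTS-Mge1 against 72.8, 70.5 and 74.5 CPM with MTS-Mss116 (0.51, SE 0.071, edgeR adjusted p = 0.0335). SFT2 alone among these 8 passed with any 1 of the 6 libraries left out, with adjusted p of at most 0.0238. Without MTS-Mge1-mCherry replicate 1 or without MTS-Mss116-mCherry replicate 1, the other 7 no longer passed (largest adjusted p over all libraries left out in turn 0.0568 for CAX4 to 0.325 for PHO80), and SFK1, PHO80 and YGR017W did not pass without any single library, while the log2 fold changes of all 8 stayed between 0.48 and 0.99.

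**Figure D2:**
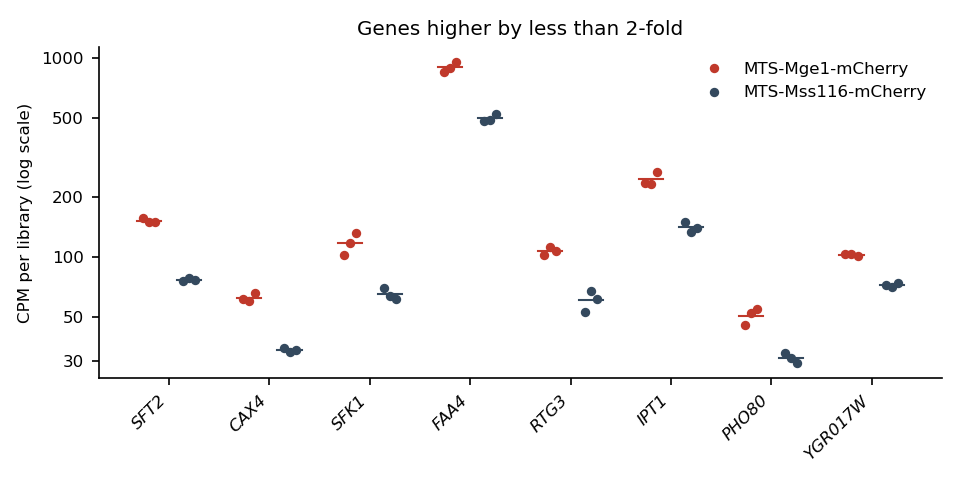
CPM per library (vertical axis, log scale) of the 8 genes that rose by less than 2-fold, with MTS-Mge1-mCherry in red, MTS-Mss116-mCherry in dark blue and a line at each group's mean. For each gene the 3 red points lie above the 3 dark points, from YGR017W (104, 104 and 101 CPM with MTS-Mge1 against 72.8, 70.5 and 74.5 CPM with MTS-Mss116) to SFT2 (158, 151 and 150 CPM with MTS-Mge1 against 76.1, 78.7 and 76.6 CPM with MTS-Mss116). The 8 genes were called on the libraries plotted.

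The same genes were read in libraries that this comparison did not use, those of cells overexpressing Psd1, a phosphatidylserine decarboxylase that impairs protein import when overproduced, with PDR3 against pdr3Δ. That comparison called 37 genes higher (0.602% of the genes it tested) and 7 lower (0.114%). Of the 8 genes, 5 were called higher there with PDR3: FAA4 (log2 fold change 0.65, edgeR adjusted p = 0.0249), SFK1 (0.56, 0.0173), RTG3 (0.53, 0.0173), IPT1 (0.52, 0.0169) and SFT2 (0.47, 0.00799). CAX4 (0.28, edgeR adjusted p = 0.341), PHO80 (0.28, 0.31) and YGR017W (0.10, 0.589) did not pass. In pdr3Δ cells overexpressing MTS-Mge1-mCherry, set against the same MTS-Mss116-mCherry libraries, the log2 fold changes of the 8 genes were -0.12 for YGR017W to 0.37 for CAX4, and none passed the edgeR test (smallest adjusted p 0.303, for CAX4). That comparison called 1 gene higher (HIS3) and 1 lower (PDR3, the deleted gene) of the 6172 genes it tested (0.0162% each), so 0 of 8 is near its background.

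Promoters were searched for the PDRE, because it is the element that Pdr3 binds and the data gave genes that rose strongly and genes that rose weakly. The letters searched were TCCGCGGA, TCCGTGGA and TCCACGGA on both strands, within 600 bp before the start codon; TCCGCGGA is its own reverse complement, and TCCGTGGA and TCCACGGA are reverse complements of each other. Of 5793 tested protein-coding genes, 113 (1.95%) held a match. Of the genes that rose at least 2-fold, 21 of 28 (75.0%) held one, against 2 of 8 (25.0%) of those that rose by less than 2-fold, namely IPT1 and YGR017W. The windows below show the element in capitals with 16 bases on either side, for strongly changed genes and for these 2 (RefSeq, build R64, strand of the gene).
YGR035C, first element, VII:557817-557856, minus strand: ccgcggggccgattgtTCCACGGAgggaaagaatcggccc
YGR035C, second element, VII:557715-557754, minus strand: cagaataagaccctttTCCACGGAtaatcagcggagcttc
CIS1, XII:822894-822933, minus strand: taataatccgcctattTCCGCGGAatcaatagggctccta
PDR15, IV:1278815-1278854, plus strand: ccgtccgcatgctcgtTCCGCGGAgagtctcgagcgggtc
IPT1, IV:591774-591813, minus strand: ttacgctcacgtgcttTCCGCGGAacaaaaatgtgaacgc
YGR017W, VII:523480-523519, plus strand: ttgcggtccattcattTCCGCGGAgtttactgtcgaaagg

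CIS1, PDR15, IPT1 and YGR017W thus held the same 8 letters, at 325, 379, 453 and 291 bases before their start codons, beside log2 fold changes of 6.87, 3.96, 0.80 and 0.51. YGR035C, a gene of unknown function, held TCCACGGA at 418 and 316 bases before its start codon and had the largest log2 fold change of all genes, 7.22. A match is a description of these windows and not a bound site. RTG3 and SFT2 are transcribed away from each other from a shared gap of 561 bp that held 0 matches, and both rose.

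Some genes next to strongly changed ones had positive log2 fold changes that did not pass the test. Apart from MIM2, these were chosen after their values were seen. Other neighbours had values near 0 or below it, such as KAP95 beside CIS1 (0.013), TRS120 beside PDR15 (-0.093) and SLP1 beside PDR5 (-0.38). MIM2, a subunit of the outer membrane insertase for helical proteins, is read from the same gap of 396 bp as ICT1, and had 35.0, 26.5 and 31.1 CPM under MTS-Mge1-mCherry against 20.9, 21.3 and 20.8 CPM under MTS-Mss116-mCherry (log2 fold change 0.55, edgeR adjusted p = 0.283). TAH1, a cofactor of Hsp90, lies on the same strand as TVS1 and ends before the gap of 828 bp from which TVS1 is read. It had 44.5, 39.5 and 45.5 CPM with MTS-Mge1 against 31.9, 33.0 and 31.8 CPM with MTS-Mss116 (0.42, edgeR adjusted p = 0.277). Both gaps held 1 PDRE match. ATG40, a receptor for autophagy of the endoplasmic reticulum, did rise (log2 fold change 1.96, edgeR adjusted p = 0.00218), and is read from the same gap as the pump gene PDR5, which is 1551 bp long and held 4 matches. The window of 600 bp before ATG40 itself held none.

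Decreases were few by the test. The 1 gene that fell, YOR050C, had 6.63, 6.38 and 5.71 CPM under MTS-Mge1-mCherry and 14.6, 15.8 and 12.6 CPM under MTS-Mss116-mCherry (log2 fold change -1.20, SE 0.16, edgeR adjusted p = 0.0282). It rests on 62 to 87 counts with MTS-Mge1 against 175 to 203 counts with MTS-Mss116, its identifier is absent from RefSeq, and the call was lost without any 1 of the 6 libraries (adjusted p up to 0.177). YDR133C, also absent from RefSeq, came close at a far higher level, with 289, 299 and 417 CPM with MTS-Mge1 against 730, 609 and 816 CPM with MTS-Mss116 (-1.10, SE 0.18, edgeR adjusted p = 0.0801). YDR133C passed with DESeq2 (adjusted p = 3.94e-06), and fell in the Psd1 libraries with PDR3 against pdr3Δ (log2 fold change -0.61, edgeR adjusted p = 0.0434).

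SHC1, an activator of chitin synthesis in sporulation, had 12.2, 8.11 and 9.26 CPM under MTS-Mge1-mCherry and 26.0, 23.3 and 16.5 CPM under MTS-Mss116-mCherry (log2 fold change -1.16, edgeR adjusted p = 0.173). PHO3, an acid phosphatase repressed by thiamine, had 97.9, 75.6 and 118 CPM with MTS-Mge1 against 163, 134 and 197 CPM with MTS-Mss116 (-0.76, edgeR adjusted p = 0.351). ARG5,6, which encodes enzymes of arginine synthesis in mitochondria, had 201, 219 and 215 CPM with MTS-Mge1 against 327, 302 and 297 CPM with MTS-Mss116 (ARG56, -0.55, SE 0.089, edgeR adjusted p = 0.0736). In each of these genes every MTS-Mge1-mCherry library lay below every MTS-Mss116-mCherry library, as in 347 of all genes tested (5.61%). The 4 copies of the asparaginase gene ASP3, ASP3-1, ASP3-2, ASP3-3 and ASP3-4, had log2 fold changes of -0.51, -0.51, -0.50 and -0.51, but all of their 59 bp stretches occur elsewhere in the genome, so their counts may be split between copies.

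Several of the largest fitted decreases rested on 1 library, and are named here after their values were seen. TDH1, a glyceraldehyde-3-phosphate dehydrogenase, had 123, 121 and 129 CPM under MTS-Mge1-mCherry and 56.0, 887 and 49.2 CPM under MTS-Mss116-mCherry (log2 fold change -1.41, edgeR adjusted p = 0.911). ZPS1, a gene induced when zinc is scarce, had 27.5, 89.1 and 489 CPM with MTS-Mge1 against 14.1, 1380 and 16.5 CPM with MTS-Mss116 (-1.22, edgeR adjusted p = 0.938). YOR387C had the most negative log2 fold change of all genes, -2.90 (edgeR adjusted p = 0.835), at 5.24, 7.24 and 20.3 CPM with MTS-Mge1 against 3.23, 244.2 and 2.59 CPM with MTS-Mss116. In all 3 the value of MTS-Mss116-mCherry replicate 2 stood above the 5 other libraries, and without it their log2 fold changes were 1.24 for TDH1, 3.73 for ZPS1 and 1.93 for YOR387C.

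A pattern that ran through many genes was found in oxidative phosphorylation, the electron transfer chain and ATP synthase of the inner mitochondrial membrane, whose subunits are mostly nuclear genes and must be imported. Of its 45 nuclear genes, 41 had a negative log2 fold change (50.8% of all genes tested did), and in 37 every MTS-Mge1-mCherry library lay below every MTS-Mss116-mCherry library (5.61% of all genes). None of the 45 passed the edgeR test, and the smallest adjusted p was 0.174; at an unadjusted p under 0.05, 33 were lower and 0 higher (2.78% and 4.21% of all genes). The median log2 fold change was -0.33, and -0.39 to -0.31 with 1 library left out. With DESeq2, 23 of the 45 passed as lower (0.779% of all genes it tested), and with all 5 groups of the study in one edgeR fit 22 did (0.672%). A set of 37 genes was called lower by both of these alternatives, and 20 of them were in this list.

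In complex II, all 4 genes were lower without overlap (median log2 fold change -0.33), against 5.61% of all genes tested. SDH1, the flavoprotein subunit of succinate dehydrogenase, had 896, 917 and 794 CPM under MTS-Mge1-mCherry and 1163, 1339 and 1105 CPM under MTS-Mss116-mCherry (-0.47, SE 0.12, edgeR adjusted p = 0.338). In complex III, all 9 genes were lower without overlap (median -0.33), among them COR1, a core subunit, with 1137, 1143 and 1074 CPM with MTS-Mge1 against 1478, 1461 and 1480 CPM with MTS-Mss116 (-0.40, edgeR adjusted p = 0.281), and CYT1, which encodes cytochrome c1, with 772, 765 and 769 CPM with MTS-Mge1 against 1005, 1001 and 1021 CPM with MTS-Mss116 (-0.39, edgeR adjusted p = 0.245). For CYT1 the SD was 3.52 CPM with MTS-Mge1-mCherry and 10.5 CPM with MTS-Mss116-mCherry, small beside the difference between them. CYC1, the main cytochrome c, had 1115, 1136 and 1149 CPM with MTS-Mge1 against 1493, 1493 and 1583 CPM with MTS-Mss116 (-0.43, edgeR adjusted p = 0.224). Of the 2 cytochrome c genes 1 was lower without overlap, and of the 3 NADH dehydrogenase genes 1 was.

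In complex IV, 8 of 10 genes were lower without overlap (median -0.36), against 5.61% of all genes tested. COX8, a small subunit of cytochrome c oxidase, had 288, 284 and 287 CPM under MTS-Mge1-mCherry and 403, 371 and 377 CPM under MTS-Mss116-mCherry (log2 fold change -0.42, SE 0.085, edgeR adjusted p = 0.174). COX5B, the form of subunit 5 made when oxygen is low, went the other way in value (0.46, edgeR adjusted p = 0.784), at 19.7, 19.1 and 18.2 CPM with MTS-Mge1 against 10.6, 18.9 and 12.1 CPM with MTS-Mss116. In complex V, 14 of 16 genes were lower without overlap (median -0.33), for example ATP2, the catalytic subunit of ATP synthase, with 2537, 2542 and 2454 CPM with MTS-Mge1 against 3253, 3403 and 3465 CPM with MTS-Mss116 (-0.43, edgeR adjusted p = 0.281). STF1, which binds the synthase as an inhibitor factor, had 0.16 (edgeR adjusted p = 0.956). HAP4, the regulated subunit of the activator of respiratory genes, had 417, 447 and 326 CPM with MTS-Mge1 against 431, 465 and 440 CPM with MTS-Mss116 (-0.17, edgeR adjusted p = 0.912).

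**Figure D3:**
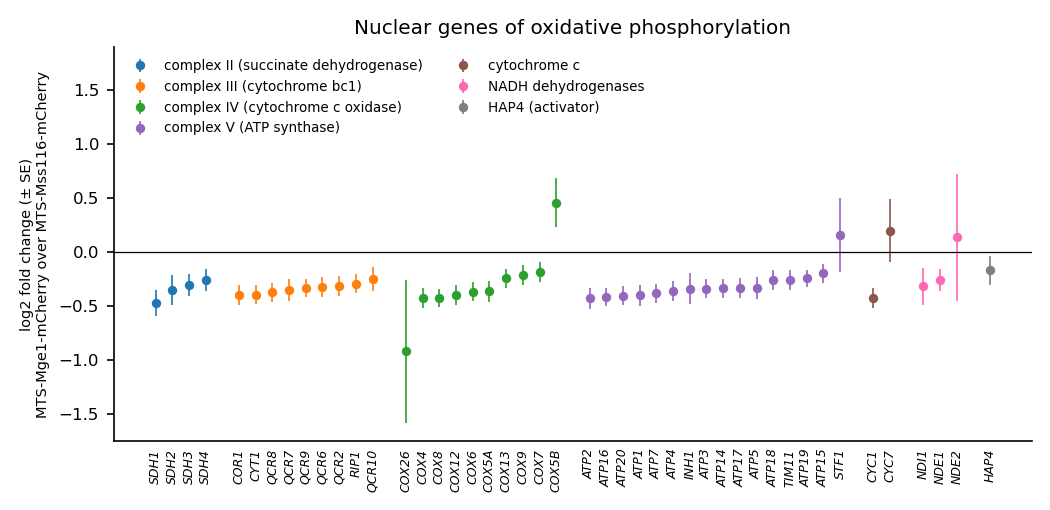
The log2 fold change (MTS-Mge1-mCherry over MTS-Mss116-mCherry) with its SE for each of the 45 nuclear genes of oxidative phosphorylation, grouped by complex. The points of complexes II, III and V and most of complex IV sit in a narrow band with medians of -0.36 to -0.33, while COX5B (0.46), CYC7 (0.20), STF1 (0.16) and NDE2 (0.14) lie above 0, and COX26 (-0.92) has the largest SE.

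Carriers of the inner membrane that serve this system had like values. PET9, the main ADP/ATP carrier, had 1745, 1748 and 1834 CPM under MTS-Mge1-mCherry and 2448, 2345 and 2650 CPM under MTS-Mss116-mCherry (log2 fold change -0.48, edgeR adjusted p = 0.206). MIR1, the phosphate carrier, had 1089, 990 and 1072 CPM with MTS-Mge1 against 1362, 1218 and 1454 CPM with MTS-Mss116 (-0.36, edgeR adjusted p = 0.499). These 2 were chosen after their values were seen. Other mitochondrial lists had medians near 0: the median was -0.027 for mitochondrial ribosomal proteins (77 genes, 3 lower and 3 higher without overlap), 0.016 for protein import (42 genes, 2 and 3) and 0.035 for mitochondrial chaperones and proteases (23 genes, 1 and 7). Of all genes, 5.61% were lower and 7.2% higher without overlap, so the 7 of 23 lay above that share. None of the 23 passed the edgeR test (smallest adjusted p 0.568). Of 2032 other genes with a mean of at least 100 CPM, a level that 41 of the 45 genes reach, 145 (7.14%) were lower without overlap, and their median was -0.047.

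Across the study, the summed level of the 45 genes set the MTS-Mss116-mCherry libraries apart from all others. With all 15 libraries scaled together, the sum was 21938 ± 845 CPM under MTS-Mge1-mCherry, 20311 ± 526 CPM under MTS-Mge1-mCherry in pdr3Δ cells, 18022 ± 1027 CPM under Psd1, 16920 ± 279 CPM under Psd1 in pdr3Δ cells and 28177 ± 716 CPM under MTS-Mss116-mCherry (mean ± SD, n = 3 each). The median log2 fold change of the list was -0.47 for MTS-Mge1-mCherry in pdr3Δ cells against the same MTS-Mss116-mCherry libraries, and 0.10 for Psd1 with PDR3 against Psd1 in pdr3Δ cells. No member passed the edgeR test in either, where 0.0162% and 0.114% of the genes tested were called lower. The MTS-Mss116-mCherry libraries are also those with the additional table in their labels and the other strain genotype. Effects of these and of either presequence cannot be told apart.

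**Figure D4:**
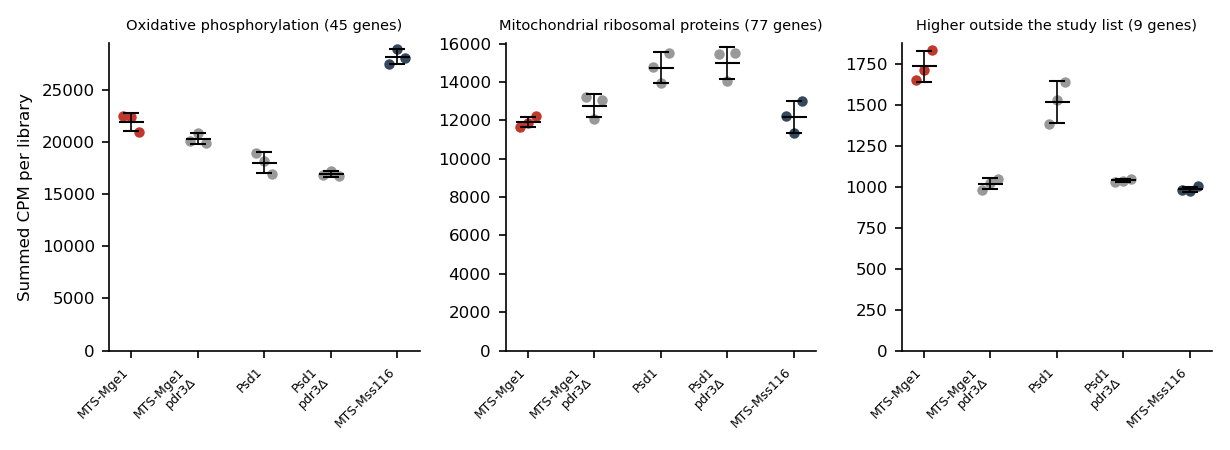
Summed CPM per library (vertical axes, from 0) in the 5 groups of the study for the 45 nuclear oxidative phosphorylation genes, the 77 mitochondrial ribosomal protein genes and the 9 genes that rose outside the study's list, with points for libraries and bars for the mean and SD. Oxidative phosphorylation is highest under MTS-Mss116-mCherry (28177 ± 716 CPM). The 9 genes are high under MTS-Mge1-mCherry (1737 ± 94.1 CPM) and Psd1 (1520 ± 127 CPM), and average 985 to 1040 CPM in the other 3 groups. They were selected as higher with MTS-Mge1 than with MTS-Mss116, so the difference between those groups is not separate support. The largest share of their sum came from FAA4, with 850, 888 and 959 CPM in the MTS-Mge1 libraries. In the Psd1 libraries FAA4 had 733, 867 and 943 CPM.

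The tricarboxylic acid cycle and its anaplerotic and retrograde genes (25, the 4 SDH genes included) had a median log2 fold change of -0.21, with 12 lower and 3 higher without overlap (5.61% and 7.2% of all genes). The 4 SDH genes of complex II are among these 12. KGD2, a subunit of the oxoglutarate dehydrogenase complex, had 472, 477 and 408 CPM under MTS-Mge1-mCherry and 581, 665 and 569 CPM under MTS-Mss116-mCherry (-0.42, edgeR adjusted p = 0.378). LPD1, the subunit that this complex shares with pyruvate dehydrogenase, had 784, 798 and 748 CPM with MTS-Mge1 against 647, 695 and 654 CPM with MTS-Mss116 (0.22, edgeR adjusted p = 0.688). Only RTG3 passed the test in this list. CIT2, the peroxisomal citrate synthase that is the usual readout of the retrograde signal, had 763, 779 and 295 CPM with MTS-Mge1 against 344, 799 and 293 CPM with MTS-Mss116 (0.35, edgeR adjusted p = 0.938), so its groups overlapped.

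Amino acid synthesis (70 genes) had a median of -0.14, with 12 lower and 2 higher without overlap (5.61% and 7.2% of all genes), and none passed the edgeR test (smallest adjusted p 0.0736, for ARG56). Beside it, the arginine enzymes ARG3, with 117, 132 and 132 CPM under MTS-Mge1-mCherry against 197, 186 and 164 CPM under MTS-Mss116-mCherry (log2 fold change -0.52, edgeR adjusted p = 0.171), and ARG8 (-0.38, 0.402) were lower without overlap. The letters TGACTC, the core of the site of the activator Gcn4, occurred on either strand within 600 bp before 48 of the 70 genes (68.6%), against 15.5% of all tested protein-coding genes. That share describes the list whichever way its genes changed, and a role of Gcn4 was not tested. Genes of folding in the endoplasmic reticulum (31) had a median of -0.13, with 4 lower without overlap (5.61% of all genes), and those of pheromone response and mating (25) one of -0.039, with 7 lower and 1 higher without overlap (5.61% and 7.2%). No gene of these 2 lists passed the edgeR test (smallest adjusted p 0.499 in each). Cytosolic ribosomal proteins (139) had negative values in 135 genes at a median of -0.18, but only 1 lower without overlap, and the median ran from -0.34 to -0.053 with 1 library left out.

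On the other side, all 35 proteasome genes had positive log2 fold changes (49.2% of all genes did) with a median of 0.18, and 8 were higher without overlap (7.2% of all genes); none passed the edgeR test. RPN4, their activator, had 129, 133 and 104 CPM under MTS-Mge1-mCherry and 86.3, 101 and 84.7 CPM under MTS-Mss116-mCherry (0.43, edgeR adjusted p = 0.437). Autophagy genes (39) had a median of 0.18, with 6 higher without overlap, of which ATG40 rose. Galactose genes, which share the inducer of both constructs, were positive in 11 of 11 at a median of 0.21, with 2 higher without overlap and none past the test (smallest adjusted p 0.654). The median of glycolysis and fermentation (25 genes) was 0.16, and 0.062 to 0.36 with 1 library left out. Values of general stress genes (median 0.072, and -0.25 to 0.67 with 1 library left out) and of trehalose and glycogen (median -0.0024, and -0.23 to 0.51) changed sign with the library left out. Both were highest without MTS-Mss116-mCherry replicate 2 (0.67 and 0.51) and next without MTS-Mge1-mCherry replicate 3 (0.34 and 0.22), and negative without any 1 of the other 4 libraries.

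**Figure D5:**
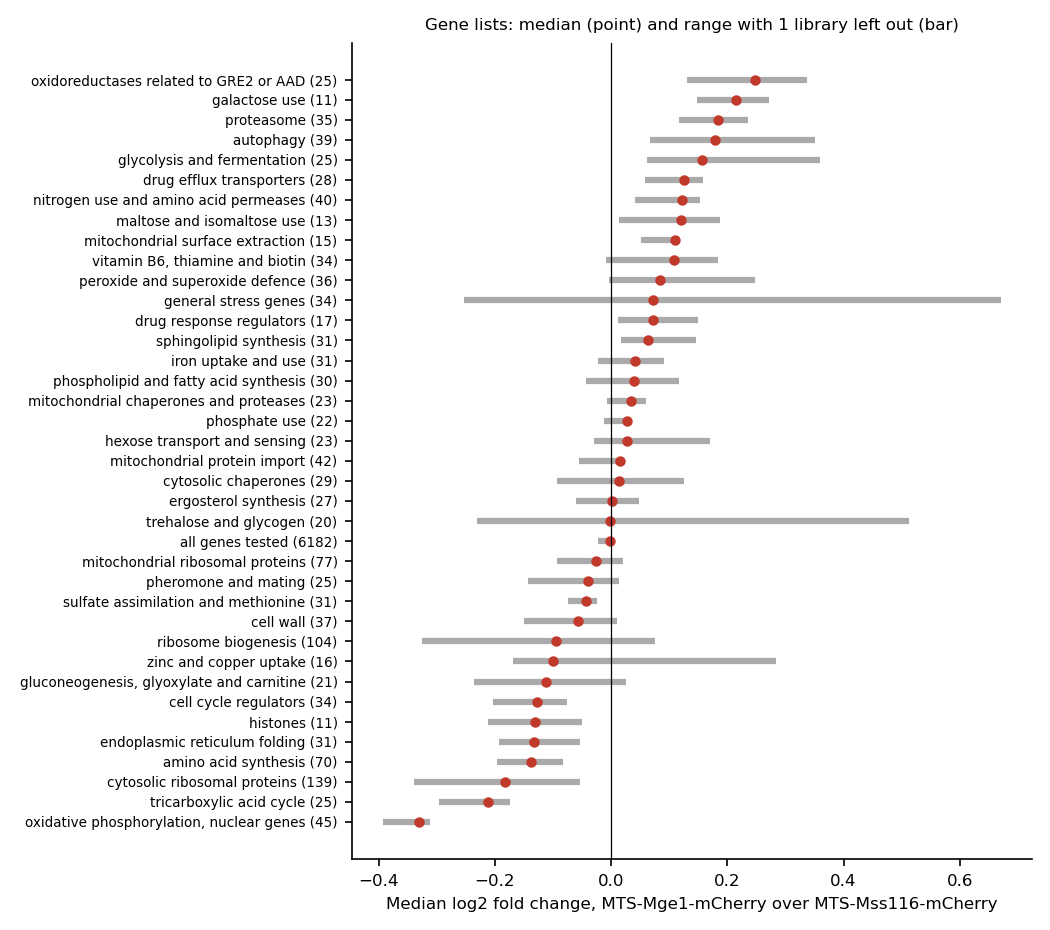
Median log2 fold change (MTS-Mge1-mCherry over MTS-Mss116-mCherry) of each gene list, with the number of genes tested in parentheses; points are medians over the 6 libraries and bars the range of the median with 1 library left out in turn. Oxidative phosphorylation (-0.33) has the lowest median and a short bar (-0.39 to -0.31), and general stress genes (0.072) the longest bar (-0.25 to 0.67).

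Within the drug resistance network the increases were held by few members of each list. Of 28 drug efflux transporters, 4 rose (0.599% of all genes tested did), PDR5, PDR15, SNQ2 and YOR1, and the median was 0.13. In the lists of this network given here, every gene that rose, IPT1 apart, is on the study's list. That list was chosen on these libraries and is not independent evidence. TPO1, a polyamine exporter, had a log2 fold change of 0.43 (edgeR adjusted p = 0.299) and FLR1, an exporter under Yap1, 0.13 (0.868), and neither passed. Of 31 genes of sphingolipid synthesis, 4 rose (0.599% of all genes tested did): RSB1, a transporter or regulator of sphingoid bases, SCS7, the sphingolipid hydroxylase, LAC1, a ceramide synthase subunit, and IPT1, with log2 fold changes of 2.56, 1.96, 1.23 and 0.80. The median of that list was 0.063. LAC1 had 106, 118 and 119 CPM under MTS-Mge1-mCherry and 49.4, 48.0 and 48.5 CPM under MTS-Mss116-mCherry (edgeR adjusted p = 0.000741).

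Over all genes tested, 0.599% rose. Of 27 genes of ergosterol synthesis and storage, only ARE2, a sterol acyltransferase, rose (log2 fold change 1.26, edgeR adjusted p = 0.00891), and the median was 0.0014. ERG12, mevalonate kinase, had 191, 195 and 209 CPM under MTS-Mge1-mCherry and 137, 146 and 150 CPM under MTS-Mss116-mCherry (0.45, edgeR adjusted p = 0.131), without overlap. Of 25 genes in a list of oxidoreductases that includes GRE2 and the AAD family, 5 rose (GRE2, ARI1, OSI1, PGA3 and YPL088W), with a median of 0.25. Of 17 regulators of drug response, only PDR3 itself rose. Its paralog PDR1 had 104, 109.9 and 109 CPM with MTS-Mge1 against 89.7, 82.8 and 85.6 CPM with MTS-Mss116 (0.32, edgeR adjusted p = 0.287, DESeq2 adjusted p = 0.0274), without overlap between the groups.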

How the data were processed

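The authors deposited 1 table of read counts per gene, whole numbers without normalization, for 15 libraries. Per the study's methods and the submitters' processing notes, stranded mRNA libraries were read as pairs of 59 bp, aligned to R64 with DRAGEN and counted with featureCounts. The strand setting is not given in the sources used here, so overlapping genes may share counts. Libraries were grouped by their labels.

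The 2 groups were fitted alone with edgeR 4.0.16 (R 4.3.3; TMM, filterByExpr, quasi-likelihood F-test, group as the only term), and p-values of all 6184 genes were adjusted by Benjamini-Hochberg. SEs came from the F statistic. DESeq2 1.42.0, other normalizations and filters, all 5 groups, a 2-fold test, a replicate block and each library left out were alternatives. Fits were tested on simulated data. The members and lists were chosen with earlier results of these data known. Genes were named by rule: all calls, the 15 largest decreases and 10 largest increases (mean of at least 10 CPM, unadjusted p under 0.05, no overlap) and up to 4 per list by p. Not every one is printed. Names, positions and sequences come from RefSeq (6047 of 7127 identifiers matched).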

Additional observations from a re-analysis of the deposited data

How the results depend on the processing

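The count of genes higher was 65 with DESeq2 and 20 to 49 with 1 library left out, against 37. The count lower was 51 with DESeq2, 42 with all 5 groups in one fit, 0 with total library size and 0 to 1 with 1 library left out, against 1; at least 2-fold lower, it was 4 with DESeq2 and with all 5 groups, and 0 with total library size, with the test against a 2-fold change and in 4 of the fits with 1 library left out. At least 2-fold higher it was 14 with the test against a 2-fold change and 19 to 38 with 1 library left out, against 29. With 1 library left out, medians ran from 1.73 to 1.96 for the study's list, -0.055 to 0.012 for mitochondrial import, -0.030 to 0.17 for hexose transport and sensing, 0.062 to 0.36 for glycolysis and fermentation, -0.20 to -0.083 for amino acid synthesis, -0.14 to 0.013 for pheromone and mating and -0.092 to 0.021 for mitochondrial ribosomal proteins. Total library size raised the median of all genes to 0.035, that of import to 0.055 and that of amino acid synthesis to -0.099. With 1 library left out, log2 fold changes ran from -2.10 to 0.17 for GRE1, -2.09 to 0.75 for ADH4 (both positive without MTS-Mss116-mCherry replicate 2) and -0.42 to 0.014 for GAR1 (positive without MTS-Mss116-mCherry replicate 3). GRE1 and ADH4 were also highest in replicate 2 of MTS-Mge1-mCherry in pdr3Δ cells, of Psd1 and of Psd1 in pdr3Δ cells. Beyond the construction of each alternative, the cause was not tested.

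With the replicate block, 47 genes were higher and 4 lower (YDR133C, YOR050C, PLB2 and PHO3), PHO80 and YOL150C lost their calls and EPL1 gained one, and 2 were at least 2-fold lower. The numbers paired the libraries in part. Deviations of same-numbered libraries correlated across genes at -0.10 for replicate 1, 0.43 for replicate 2 and 0.57 for replicate 3. Replicates 2 and 3 of each group correlated best with their own number, and replicate 1 of each group did not. In every group of the study the summed level of ribosome biogenesis genes was lowest in replicate 2 and highest in replicate 3. The source of this shared difference was not tested.

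The 3 libraries per group limit the reach of any comparison. Differences near -0.33 on the log2 scale, as in oxidative phosphorylation, did not pass edgeR's test for any gene. With the same libraries DESeq2 called 23 of the 45 oxidative phosphorylation genes lower, so these calls also depended on the method. Reads of 59 bp cannot separate near-identical copies. Growth medium, strain genotype and any difference in handling of the MTS-Mss116-mCherry libraries were not tested.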

Other observations

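Genes that missed the edgeR threshold but were called higher both by DESeq2 and with all 5 groups in one fit numbered 14. Outside the study's list these included EPL1, a subunit of the NuA4 histone acetyltransferase, with 125, 110 and 111 CPM under MTS-Mge1-mCherry and 81.5, 77.6 and 84.4 CPM under MTS-Mss116-mCherry (log2 fold change 0.50, edgeR adjusted p = 0.0953, and 0.0456 with the replicate block). DIG1, a repressor of the mating and filamentation activator Ste12, had 217, 219.7 and 236 CPM with MTS-Mge1-mCherry against 166, 164 and 162 CPM with MTS-Mss116-mCherry (0.45, edgeR adjusted p = 0.109). RGL1, a regulator of Rho1 signalling, had 336, 324 and 298 CPM with MTS-Mge1-mCherry against 250.1, 228 and 259 CPM with MTS-Mss116-mCherry (0.38, edgeR adjusted p = 0.348). In each of the 3 the groups did not overlap.

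Genes outside oxidative phosphorylation that both alternatives called lower included MNN1, a mannosyltransferase of the Golgi, with 77.4, 75.9 and 83.2 CPM under MTS-Mge1-mCherry and 106, 97.3 and 113 CPM under MTS-Mss116-mCherry (log2 fold change -0.42, edgeR adjusted p = 0.206), PMT2, an O-mannosyltransferase of the endoplasmic reticulum (-0.33, edgeR adjusted p = 0.426), and EMP24, a cargo receptor of COPII vesicles (-0.25, edgeR adjusted p = 0.499). All genes named here were picked with their values known.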
